A study of Sus scrofa with 8 samples.

Results

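The SLC25 genes encode the mitochondrial carriers, the family of transport proteins that move nucleotides, phosphate, organic acids, amino acids, cofactors and iron across the inner membrane of the mitochondrion. Members were taken as every gene of the deposited table whose symbol begins with SLC25A: 40 of 23235 genes, of which 31 had a mean of at least 1 FPKM (fragment counts divided by transcript length and library depth) over the 8 libraries and are called expressed here. Poly(A) RNA came from the back muscle longissimus dorsi. The animals were weaned piglets of the cross Duroc x Landrace x Yorkshire, 28 days old at the start. After 5 days of adaptation on a shared basal diet, piglets randomised 6 per group received by gavage, every morning for 23 days, either 10 mL of sterile saline (control, 4 libraries) or the same volume with melatonin at 5 mg per kg body weight (melatonin, 4 libraries). Melatonin is the night hormone of the pineal gland. The labels name no genotype or sex, and libraries were treated as coming from different piglets, which the labels do not state. P-values therefore measure the spread between these samples, which may be technical in part.

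Mitochondrial carriers share a fold built from repeats of a transmembrane unit, and most of them work as exchangers that bind a substrate on one side of the inner membrane and release it on the other. In skeletal muscle the ADP/ATP carrier and the phosphate carrier feed the ATP synthase with its substrates and return ATP to the contractile machinery. Other members connect pathways across the membrane: the malate-aspartate shuttle brings in the reducing power of cytosolic NADH, and the carnitine shuttle brings in fatty acids for oxidation.

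Total counts ran from 53471667 to 60629098 per library, and an expressed member had between 21 and 91759 counts in a library. FPKM values are given for control replicates 1 to 4 and then melatonin replicates 1 to 4. Each log2 fold change (melatonin against control, ± SE) was fitted to the counts in edgeR with TMM scaling for composition, which FPKM lacks. The TMM factor was 1.185 in melatonin replicates 1 and 3 and 0.851 to 1.021 in the other 6 libraries. Fast-fibre markers were abundant in every library (summed level of 8 genes, 36997 to 49037 FPKM). Libraries differed in other cell types. Summed fibroblast markers (5 of 5 listed genes found, the lowest of them PDGFRA) reached 4902 and 1614 FPKM in melatonin replicates 1 and 3, against 387 to 767 in controls and 534 and 550 in melatonin replicates 4 and 2. In melatonin replicates 1 and 3 most of this sum was COL1A1 (3457 and 913 FPKM), while LUM, at 31.3 and 18.8 FPKM, compared with 9.65 to 29.5 in controls. Summed slow-fibre markers (6 of 6) ran from 2163 to 10112 FPKM in controls and from 664 to 6164 after melatonin. Red blood cell markers (4 of 6 found), nearly all from HBB, were at 121 and 165 FPKM in control replicates 1 and 3 and 99.5 in melatonin replicate 3, against 37.8 to 41.9 in the other 5 libraries. Their defining genes SLC4A1 and AHSP were listed at 0 in 7 and 5 libraries. Adipocyte markers (5 of 5) spanned 21.8 to 126 FPKM in controls and 13.7 to 219 after melatonin, macrophage markers (5 of 5) 10.9 to 24.1 and 8.86 to 34.4, and endothelial markers (5 of 5) 41.3 to 63.1 and 41.5 to 58.5. Melatonin replicates 1 and 3 were the highest of the 8 libraries in summed adipocyte (219 and 193.5 FPKM) and macrophage markers (28.7 and 34.4 FPKM). In bulk tissue, fewer cells of a type and less RNA per cell cannot be told apart.

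Carrier expression was concentrated in a pair of genes. SLC25A4, the muscle isoform of the ADP/ATP carrier, averaged 268 FPKM and SLC25A3, the phosphate carrier, 253 FPKM over the 8 libraries, at the 98.9th percentile of the 9821 genes with a mean of at least 1 FPKM. Together they made up 66.6 to 69.9% of the summed FPKM of all 40 members in controls and 61.5 to 67.5% after melatonin. SLC25A11, the oxoglutarate/malate carrier, followed at 47.8 FPKM. SLC25A34, whose substrate is not firmly assigned, averaged 38.8 FPKM, SLC25A12, the aspartate/glutamate carrier aralar, 31.7, and SLC25A20, the carnitine/acylcarnitine carrier, 27.8. SLC25A39 (15.0 FPKM), SLC25A28 (12.3) and SLC25A25 (12.1) complete the 9 members at or above 10 FPKM, and 22 expressed members lay below that level. In the order of levels, SLC25A4 and SLC25A3 were not separated: their FPKM ratio was 1.07, 0.925, 1.20 and 0.999 in the controls and 1.01, 1.04, 1.13 and 1.08 after melatonin.

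**Figure D1:**
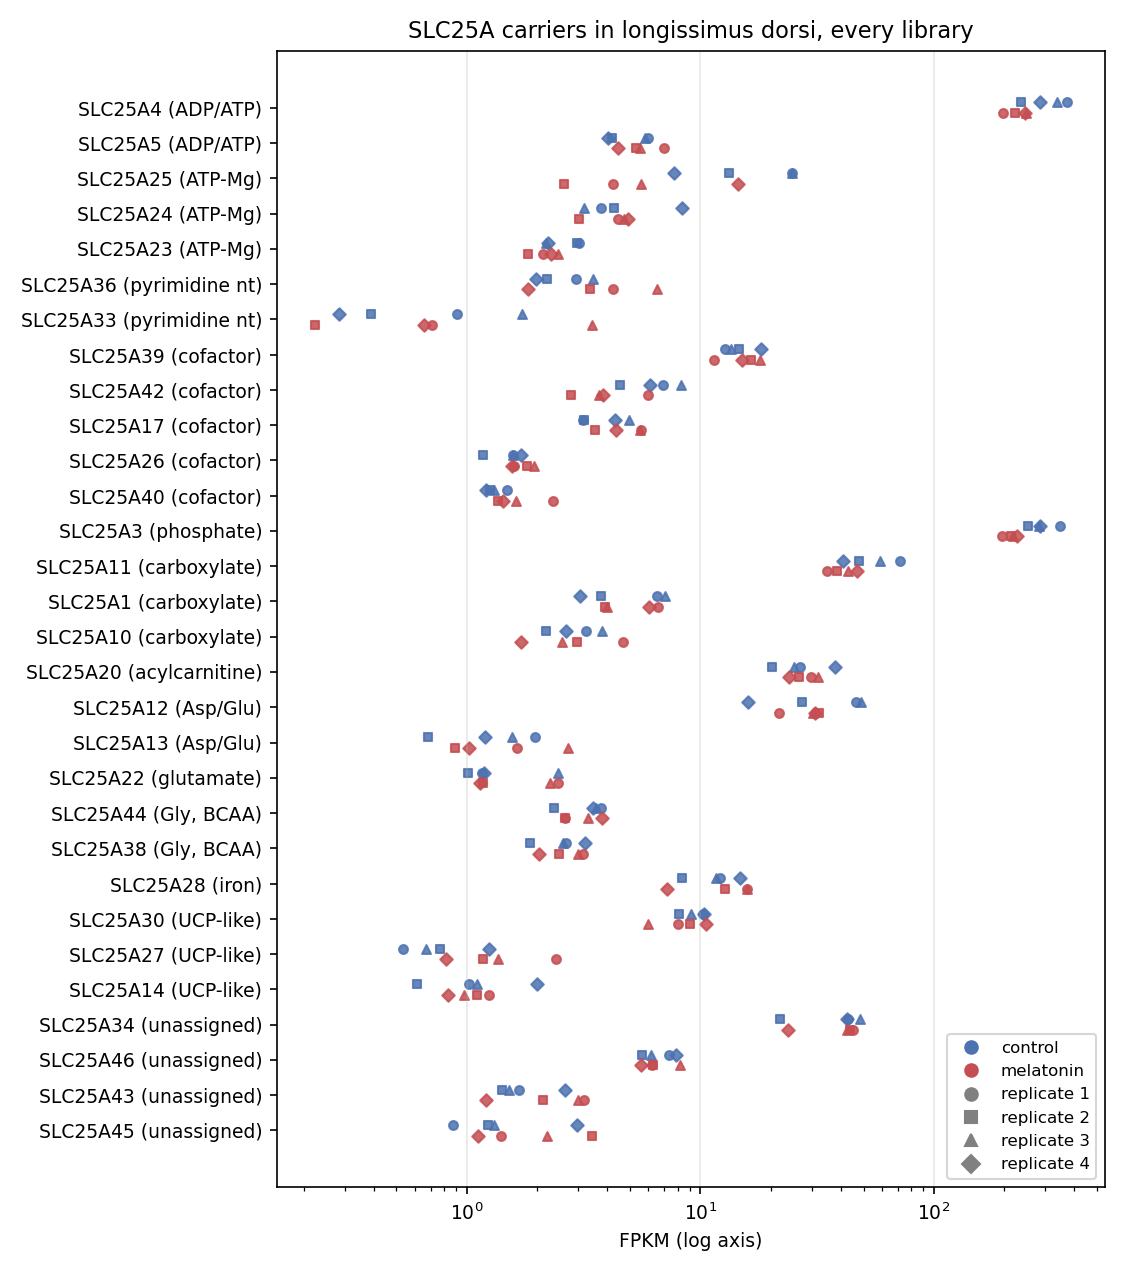
Level of expressed SLC25A genes by substrate group in every library (x axis, FPKM on a log axis; y axis, gene with its substrate), with control libraries in blue, melatonin libraries in red and a marker shape per replicate number. SLC25A4 and SLC25A3 stand at 195 to 372 FPKM, and SLC25A11, the third by level, at 35.0 to 71.5.

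The members under the minimum were SLC25A16, SLC25A15, SLC25A32, SLC25A35, SLC25A21, SLC25A47, SLC25A41, SLC25A48 and SLC25A53. SLC25A16 lay just below the minimum at 0.699 FPKM and SLC25A33 just above it at 1.04. Of these 9, SLC25A53 had counts in 1 library (at most 4), and SLC25A48, with at most 8, was listed at 0 in 6 libraries. SLC25A15, the ornithine carrier of the urea cycle, averaged 0.658 FPKM and SLC25A32, a carrier linked to folate and FAD, 0.623. Of the 31 that passed, 3 had a mean of at least 1 FPKM in 1 group only and so entered through the group where they were higher, which for SLC25A27 and SLC25A33 was melatonin. The table also holds 3 genes that its description column or a gene number in it assigns to the family but whose symbol field holds an ID. SLC25A29, for basic amino acids, averaged 3.56 FPKM (log2 fold change -0.13 ± 0.30), SLC25A51, the NAD carrier, 4.01 (-0.17 ± 0.16) and SLC25A2, an ornithine carrier, 0.193.

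Members lay on 13 chromosomes, with 7 of the 40 on chromosome 2, 5 on chromosome 12 and 4 each on chromosomes 13 and X. SLC25A43 and SLC25A5 lie 12530 bases apart on the same strand of chromosome X, with 1 other gene starting between them, and SLC25A23 and SLC25A41 lie 5679 bases apart on chromosome 2. The genes of each pair were expressed at different levels: SLC25A5 averaged 5.28 FPKM and SLC25A43 2.09, while SLC25A23 averaged 2.39 and SLC25A41 0.154. By the GO terms in the table, 5 members bind calcium ions (SLC25A12, SLC25A13, SLC25A23, SLC25A24 and SLC25A25), which is known to regulate these carriers from the outer face of the inner membrane, and all 5 were expressed. Several gene models overlap another gene, and strand use in counting is not given in the sources used here. SLC25A11 overlaps RNF167 (9.44 FPKM), SLC25A12 overlaps HAT1 (3.81 FPKM) and SLC25A26 (1.62 FPKM) overlaps LRIG1 (7.38 FPKM), each on the opposite strand. On the same strand SLC25A44 (3.19 FPKM) overlaps PMF1 (4.49 FPKM).

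No carrier passed the adjusted test between melatonin and control. edgeR's quasi-likelihood test with Benjamini-Hochberg adjustment over all genes called 0 of the 31 members, beside 0 of 9821 genes (0.0%), and the smallest adjusted p of a member was 0.440. DESeq2 also called 0 members (smallest adjusted p = 0.0865), beside 65 of all genes (0.662%), and limma on log2(FPKM + 1) called 0 (smallest adjusted p = 0.776). At an unadjusted p under 0.05 edgeR gave 6 members (19.4%) against 10.5% of all genes, 5 of them lower (background 3.84%) and 1 higher (background 6.67%). DESeq2 gave 7 and limma 5, for which the share of all genes at that p was not counted. Those lower included SLC25A42, SLC25A3, SLC25A4 and SLC25A25, and the 1 higher was SLC25A27. The groups did not overlap in FPKM for 2 members, SLC25A3 among them, both lower (background 1.07% lower, 1.13% higher and 2.2% in either direction). On TMM-scaled counts this held for SLC25A3 and SLC25A42, also lower (background 2.02% lower, 2.25% higher and 4.27% in either direction).

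The 6 rested in part on single libraries. Leaving out melatonin replicates 1 and 3 together left 1 of the 6, SLC25A42. Leaving out control replicate 1 or melatonin replicate 3 left 2 members under this p, leaving out control replicate 3 or melatonin replicate 1 or 2 left 3, and leaving out melatonin replicate 4 gave 9. The share of all genes at this p was not counted for these fits.

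In direction the family was split. Of the 31 expressed members, 19 had a fitted fold change below 0 (61.3%, against 50.2% of all genes tested) and 12 above it, with a median log2 fold change of -0.05 against 0.00 over all genes. On unscaled log2(FPKM + 1) the split was 14 lower and 17 higher, where 38.2% of all genes were lower. The more abundant members lay lower: of the 9 at or above 10 FPKM, 8 were below 0, with a median of -0.31, beside 64.8% of the 2444 genes at that level, whose median was -0.09. Of the 22 less abundant members 11 were below 0, with a median of 0.02, beside 45.3% of all genes at such levels. The level of 10 FPKM was chosen after the values were seen.

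**Figure D2:**
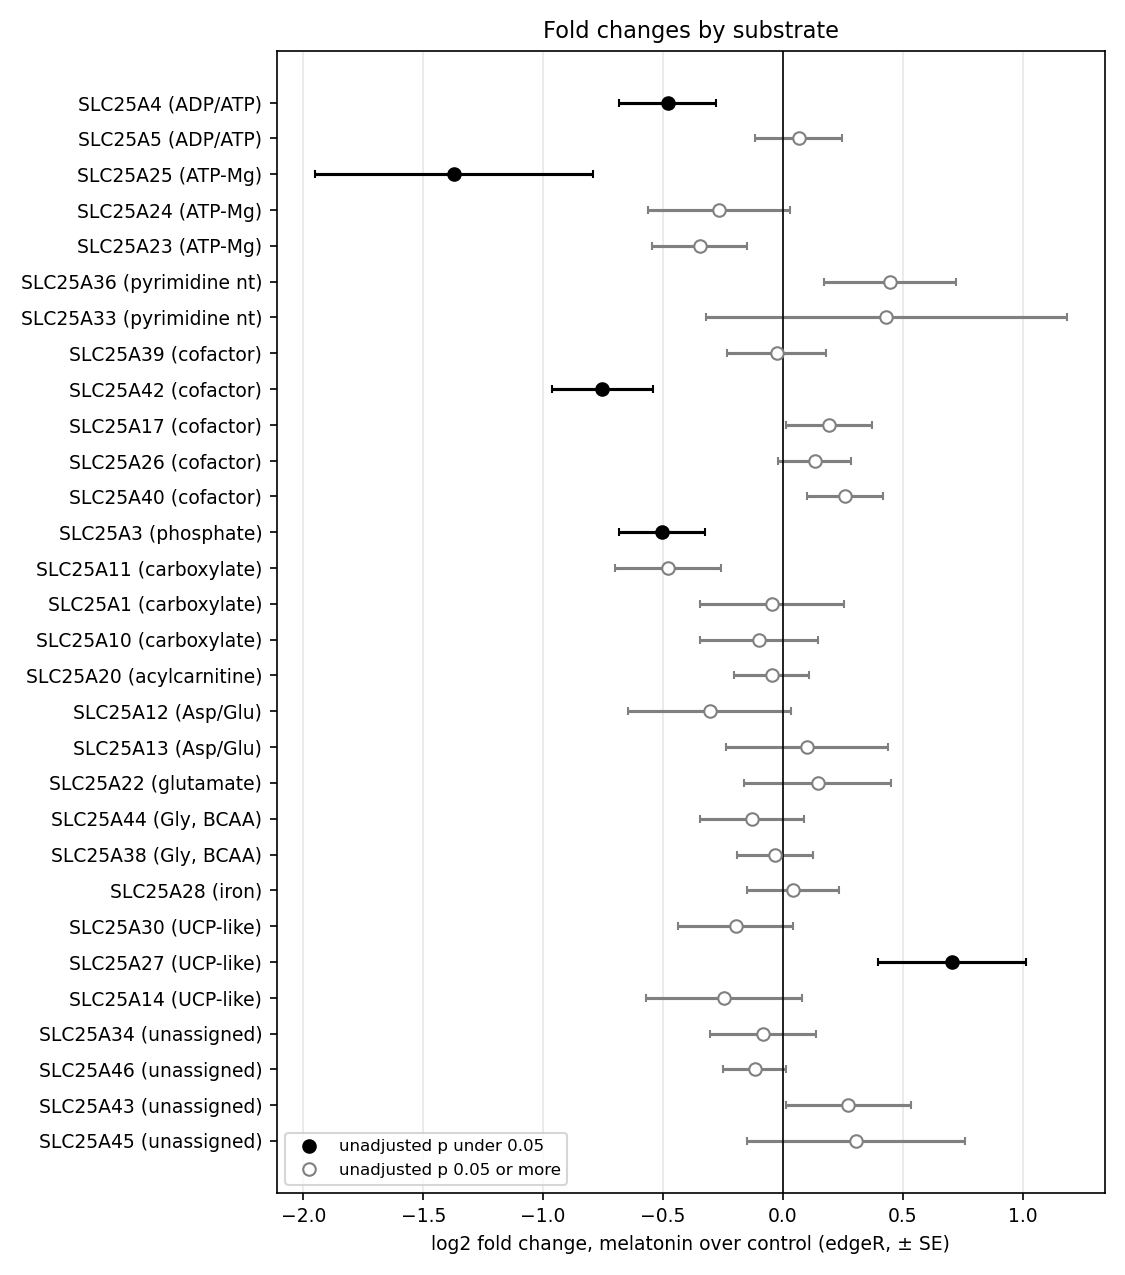
Log2 fold change of expressed SLC25A genes (x axis, melatonin over control, edgeR, bars ± 1 SE; y axis, gene with its substrate), filled where the unadjusted p was under 0.05. The 4 filled points on the left run from -1.37 (SLC25A25) to -0.48 (SLC25A4), and the single one on the right is SLC25A27 at 0.70.

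The carriers that serve the ATP synthase came first in level and were both lower after melatonin without passing the adjusted threshold. SLC25A3 imports the phosphate used to make ATP (ENSSSCG00000000886, Sscrofa11.1 chromosome 5, 85284311 to 85292328, minus strand). It measured 348, 254, 281 and 284 FPKM in the controls and 195, 215, 218 and 228 FPKM after melatonin. Every melatonin library lay below every control, in FPKM and on TMM-scaled counts. The means were 292 ± 39.7 and 214 ± 13.6 FPKM (SD, n = 4 per group). Its log2 fold change was -0.50 ± 0.18 (edgeR adjusted p = 0.446, range over the alternatives 0.122 to 0.952). SLC25A4 exchanges cytosolic ADP for mitochondrial ATP (ENSSSCG00000015790, chromosome 15, 46193746 to 46200987, plus strand). It measured 372, 235, 337 and 284 FPKM in the controls and 197, 223, 247 and 246 FPKM after melatonin. Control replicate 2 lay among the melatonin libraries, so the groups overlapped. The means were 307 ± 60.1 and 228 ± 23.6 FPKM (SD, n = 4 per group), and the fitted log2 fold change was -0.48 ± 0.20 (edgeR adjusted p = 0.461, range over the alternatives 0.161 to 0.952).

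On TMM-scaled counts, the 2 lowest libraries for both genes were melatonin replicates 1 and 3, at 335 and 372 CPM (TMM-scaled counts relative to library size) for SLC25A3 and 777 and 969 CPM for SLC25A4. These are the libraries with the highest summed fibroblast, adipocyte and macrophage markers, whose part in the difference was not tested. Without them, the log2 fold change was -0.28 for SLC25A3 and -0.27 for SLC25A4, against -0.50 and -0.48 with them, and unadjusted edgeR p was 0.148 and 0.225. Relative to citrate synthase (CS), an enzyme of the TCA cycle commonly used to gauge mitochondrial content, SLC25A4 overlapped between the groups, with an FPKM ratio of 3.98 to 5.37 in controls and 4.13 to 4.78 after melatonin. For SLC25A3 the ratio to CS was 3.96 to 5.02 and 3.83 to 4.43. CS itself measured 64.2 ± 6.91 and 51.8 ± 6.30 FPKM (SD, n = 4 per group; log2 fold change -0.36 ± 0.20, edgeR adjusted p = 0.534).

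SLC25A5 is the ADP/ATP carrier of proliferating and non-muscle cells. It measured 5.97, 4.17, 5.81 and 4.02 FPKM in the controls and 6.96, 5.31, 5.54 and 4.43 FPKM after melatonin. Control and melatonin values were interleaved, and the fitted change was 0.07 ± 0.18 on the log2 scale (edgeR adjusted p = 0.907). The ratio of SLC25A4 to SLC25A5 was 62.3, 56.4, 58.0 and 70.6 in the controls and 28.3, 42.0, 44.6 and 55.4 after melatonin. All 4 melatonin libraries lay below all 4 controls in this ratio, which was chosen after the values were seen and was not tested. The order of the ratios followed only in part that of the summed fibroblast markers, which in melatonin replicates 1 to 4 were 4902, 550, 1614 and 534 FPKM, and the part of these markers was not tested. SLC25A4 and SLC25A5 are similar in sequence, and how the authors' counting split reads that match both is not stated. No gene of the deposited table was found under the symbols SLC25A6 and SLC25A31, the other ADP/ATP carriers, so the family sums leave them out.

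**Figure D3:**
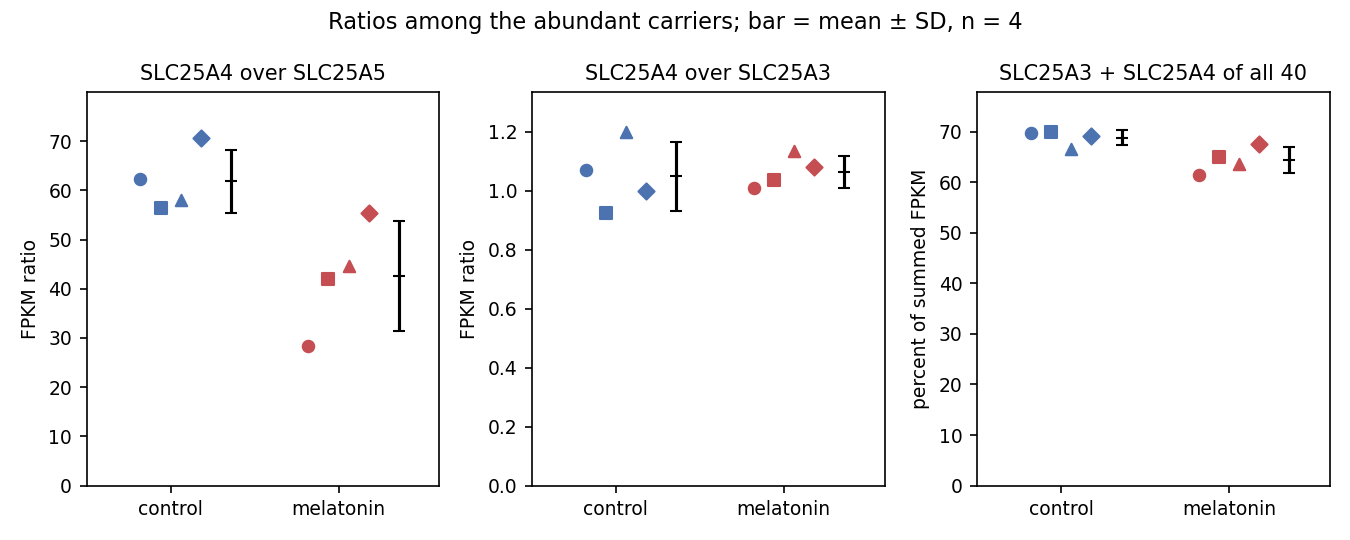
Ratios within each library (y axes: FPKM ratio or percent of the summed FPKM of all 40 members; x axis: group; circle, square, triangle and diamond: replicates 1 to 4; bars: mean ± SD, n = 4). The ratio of SLC25A4 to SLC25A5 is 56.4 to 70.6 in controls and 28.3 to 55.4 after melatonin, the ratio of SLC25A4 to SLC25A3 overlaps, and the joint share of SLC25A3 and SLC25A4 is 66.6 to 69.9% in controls and 61.5 to 67.5% after melatonin.

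The carriers of ATP-Mg in exchange for phosphate set the size of the adenine nucleotide pool in the mitochondrion under control of cytosolic calcium. They were lower in 3 of 3 expressed members (50.2% of all genes tested were lower). Of the 3, 1 was lower at an unadjusted p under 0.05 (background 3.84%). SLC25A25, the member of this group with the highest level, had the lowest log2 fold change of the family (ENSSSCG00000005636, chromosome 1, 268531752 to 268576994, plus strand). It measured 24.6, 13.3, 24.7 and 7.75 FPKM in the controls and 4.21, 2.60, 5.56 and 14.5 FPKM after melatonin. Melatonin replicates 1 to 3 lay below every control, and the overlap came from melatonin replicate 4, which lay above control replicates 2 and 4. The log2 fold change was -1.37 ± 0.58 (edgeR adjusted p = 0.463, range over the alternatives 0.0537 to 0.952). Without melatonin replicate 4 it was -2.28, and without melatonin replicates 1 and 3 it was -0.89. SLC25A25 made up 78.4, 64.6, 82.2 and 42.3% of the FPKM of the 3 genes in the controls and 39.0, 34.9, 43.6 and 66.9% after melatonin. SLC25A23 measured 3.03, 2.97, 2.18 and 2.22 FPKM in the controls and 2.12, 1.83, 2.46 and 2.29 FPKM after melatonin, with overlapping groups (log2 fold change -0.35 ± 0.20). SLC25A24 spanned 3.18 to 8.33 FPKM in controls, where replicate 4 was highest, and 3.02 to 4.88 after melatonin (-0.27 ± 0.30, and 0.07 at the highest with a library left out).

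Pyrimidine nucleotide carriers, which supply precursors for mitochondrial DNA and RNA, had fitted values above 0 in 2 of 2 members, with 0 at an unadjusted p under 0.05. Over all genes tested, 50.2% of fitted values were below 0. SLC25A33 reached the minimum in the melatonin group only (mean 1.26 FPKM, against 0.826 in controls), so the filter favoured a value above 0 for it. SLC25A36 measured 2.94, 2.20, 3.48 and 1.99 FPKM in the controls and 4.25, 3.35, 6.49 and 1.83 FPKM after melatonin. In FPKM, melatonin replicate 4 was the lowest of all 8 and replicate 3 the highest. On TMM-scaled counts control replicate 4 was lowest (21.1 CPM) and melatonin replicate 4 next (22.8 CPM). The log2 fold change was 0.45 ± 0.28 (edgeR adjusted p = 0.566). Without melatonin replicates 1 and 3 it was 0.07. SLC25A33, an insulin- and growth-factor-responsive carrier, had the highest coefficient of variation of the 31 expressed members in both groups, at 0.910, 0.387, 1.73 and 0.282 FPKM in the controls and 0.710, 0.223, 3.44 and 0.659 FPKM after melatonin. The highest value, in melatonin replicate 3, and the lowest, in replicate 2, were both in the melatonin group. Its log2 fold change was 0.43 ± 0.75, which ran from -0.64 to 1.05 with 1 library left out and was -0.74 without melatonin replicates 1 and 3.

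Among cofactor carriers, 2 of 6 expressed members, SLC25A42 among them, were lower at an unadjusted p under 0.05 (background 3.84%). SLC25A42 brings coenzyme A, the carrier of acyl groups in fatty acid oxidation and the TCA cycle, into the mitochondrion (ENSSSCG00000013927, chromosome 2, 58753371 to 58801832, minus strand). It measured 6.94, 4.54, 8.23 and 6.07 FPKM in the controls and 5.95, 2.78, 3.69 and 3.82 FPKM after melatonin. Melatonin replicate 1 overlapped the controls in FPKM. On TMM-scaled counts it did not, and melatonin libraries lay at 10.3 to 17.4 CPM against 18.3 to 28.1 in controls. SLC25A42 had the smallest p of the family, at -0.75 ± 0.21 on the log2 scale (edgeR adjusted p = 0.440; DESeq2 adjusted p = 0.0865, range over the alternatives 0.0865 to 0.952). With any 1 library left out the value ran from -0.91 to -0.63, and without melatonin replicates 1 and 3 it was -0.83.

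SLC25A39, a glutathione carrier and the leading member of this group, measured 12.7, 14.7, 13.5 and 18.2 FPKM in the controls and 11.4, 16.5, 17.9 and 15.1 FPKM after melatonin. Its groups overlapped throughout (log2 fold change -0.03 ± 0.21). Its relative SLC25A40 measured 1.32 ± 0.126 and 1.69 ± 0.453 FPKM (SD, n = 4 per group), with melatonin replicate 1 highest at 2.35 (0.26 ± 0.16). SLC25A17, the peroxisomal carrier of coenzyme A and related cofactors, measured 3.15 to 4.95 FPKM in controls and 3.55 to 5.55 after melatonin (0.19 ± 0.18). SLC25A26, which imports the methyl donor S-adenosylmethionine, measured 1.51 ± 0.229 and 1.72 ± 0.182 FPKM (SD, n = 4 per group; 0.13 ± 0.15).

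**Figure D4:**
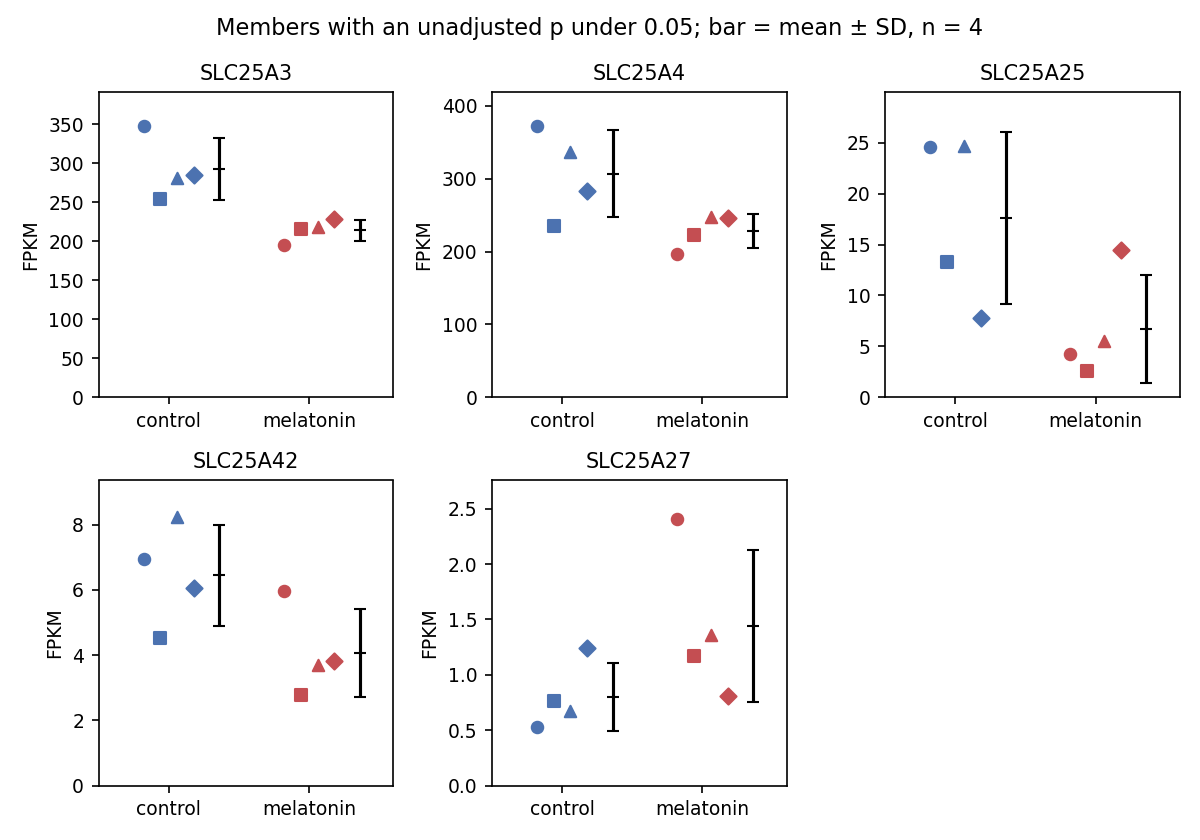
FPKM in every library (y axis, from 0) for 5 members with an unadjusted edgeR p under 0.05, by group (x axis), with circle, square, triangle and diamond for replicates 1 to 4 and mean ± SD beside the points (n = 4). SLC25A3 shows no overlap between groups, and in SLC25A25 melatonin replicate 4 (14.5 FPKM) lies above control replicates 2 and 4.

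Carboxylate carriers were lower in 3 of 3 expressed members (50.2% of all genes tested were lower), with 0 at an unadjusted p under 0.05. SLC25A11 exports oxoglutarate for malate in the malate-aspartate shuttle (ENSSSCG00000032472, chromosome 12, 51970806 to 51975548, plus strand). It measured 71.5, 47.9, 59.1 and 40.9 FPKM in the controls and 35.0, 38.6, 43.0 and 46.7 FPKM after melatonin. Only control replicate 4 lay among the melatonin libraries, and without it the log2 fold change was -0.61, against -0.48 ± 0.22 in all (edgeR adjusted p = 0.484, range over the alternatives 0.159 to 0.952). SLC25A1, which exports citrate for lipid synthesis, measured 3.06 to 7.04 FPKM in controls and 3.91 to 6.57 after melatonin (-0.05 ± 0.30). SLC25A10, the dicarboxylate carrier, measured 2.19 to 3.78 and 1.71 to 4.67 FPKM (-0.10 ± 0.25).

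SLC25A12 and SLC25A13 exchange aspartate for glutamate, the other carrier step of that shuttle. SLC25A12, the form of muscle and brain, measured 46.4, 27.3, 48.6 and 16.1 FPKM in the controls and 21.8, 32.4, 30.4 and 30.9 FPKM after melatonin. The controls spread more widely than the melatonin libraries and enclosed them, and the log2 fold change was -0.31 ± 0.34 (edgeR adjusted p = 0.741). SLC25A12 took 93.0 to 97.6% of the summed FPKM of the pair in controls and 91.8 to 97.3% after melatonin. SLC25A13, the form of liver, measured 1.96, 0.682, 1.56 and 1.20 FPKM in the controls and 1.64, 0.892, 2.72 and 1.02 FPKM after melatonin (0.10 ± 0.34). Control replicates 1 and 3, which were highest for SLC25A12, SLC25A25 and SLC25A42, were also the controls with the highest HBB level, at 119 and 163 FPKM against 41.3 and 40.7. They also had the highest summed slow-fibre markers of the controls, at 10112 and 6142 FPKM against 2163 and 3203. Melatonin replicate 3, with HBB at 97.9 FPKM and slow-fibre markers at 6164 FPKM, was not high for these 3 carriers, at 30.4, 5.56 and 3.69 FPKM. The part of blood RNA or of slow fibres in these values was not tested.

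SLC25A20 carries acylcarnitines in for fatty acid oxidation. It measured 26.7, 20.3, 25.3 and 37.6 FPKM in the controls and 29.7, 26.6, 31.9 and 23.9 FPKM after melatonin, with the melatonin libraries inside the control range (-0.05 ± 0.15, edgeR adjusted p = 0.921). SLC25A22, a glutamate carrier, measured 1.17, 1.01, 2.46 and 1.18 FPKM in the controls and 2.45, 1.17, 2.27 and 1.14 FPKM after melatonin, so that control replicate 3 and melatonin replicates 1 and 3 stood apart from the other 5 libraries (0.15 ± 0.31). SLC25A44, which imports branched-chain amino acids, measured 3.74, 2.35, 3.56 and 3.49 FPKM in the controls and 2.62, 2.64, 3.32 and 3.79 FPKM after melatonin (-0.13 ± 0.22). The groups overlapped for both. SLC25A38, a glycine carrier needed for haem synthesis, measured 2.58 ± 0.543 and 2.67 ± 0.507 FPKM (SD, n = 4 per group; -0.03 ± 0.16). SLC25A28, a mitoferrin that imports iron, measured 12.1, 8.34, 11.7 and 14.8 FPKM in the controls and 15.9, 12.8, 15.8 and 7.23 FPKM after melatonin. In FPKM it held both its highest and its lowest value in the melatonin group (0.04 ± 0.19). On TMM-scaled counts control replicate 4 was highest (23.1 CPM) and melatonin replicate 4 lowest (13.3 CPM).

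Uncoupling-protein-like members were lower in 2 of 3 (50.2% of all genes tested were lower). SLC25A27, first described as a neural member of this subgroup, was the only one of the 31 carriers higher at an unadjusted p under 0.05 (ENSSSCG00000001720, chromosome 7, 41426170 to 41457883, plus strand). It measured 0.533, 0.766, 0.669 and 1.24 FPKM in the controls and 2.41, 1.17, 1.36 and 0.812 FPKM after melatonin. Melatonin replicate 1 was highest, and replicates 2 and 4 lay within the control range. On TMM-scaled counts melatonin replicates 3 and 4 (11.3 and 9.15 CPM) lay below control replicate 4 (11.9 CPM). SLC25A27 reached the minimum in the melatonin group only (mean 1.44 FPKM, against 0.803 in controls), so the filter favoured a value above 0 for it. The log2 fold change was 0.70 ± 0.31 (edgeR adjusted p = 0.473, range over the alternatives 0.195 to 0.952). It was 0.43 without melatonin replicate 1 and 0.40 without replicates 1 and 3. The summed fibroblast and adipocyte markers, which were highest in replicate 1, were not tested for their part. SLC25A30, which is known from kidney, measured 10.2, 8.14, 9.12 and 10.3 FPKM in the controls and 8.01, 9.04, 5.99 and 10.6 FPKM after melatonin, with melatonin replicate 3 lowest (-0.20 ± 0.24). SLC25A14 spanned 0.610 to 2.00 FPKM in controls and 0.830 to 1.25 after melatonin (-0.25 ± 0.33).

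Members with no firmly assigned substrate included the abundant SLC25A34. It measured 42.8, 22.0, 48.3 and 42.3 FPKM in the controls and 45.0, 43.6, 42.4 and 23.7 FPKM after melatonin. In each group 3 libraries stood at 42.3 FPKM or more and 1, control replicate 2 or melatonin replicate 4, well below the rest (-0.08 ± 0.22). SLC25A46, a protein of the outer membrane involved in mitochondrial shape, measured 6.74 ± 1.03 and 6.57 ± 1.13 FPKM (SD, n = 4 per group; -0.12 ± 0.13). SLC25A43 measured 1.67, 1.42, 1.52 and 2.63 FPKM in the controls and 3.18, 2.13, 3.00 and 1.20 FPKM after melatonin (0.27 ± 0.26), and -0.01 without melatonin replicates 1 and 3. SLC25A45 spanned 0.869 to 2.97 FPKM in controls and 1.12 to 3.45 after melatonin (0.31 ± 0.45).

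Carrier levels spread differently within the groups. The coefficient of variation of FPKM was lower in the melatonin than in the control libraries for 18 of the 31 members, against 35.6% of all genes tested. Its median over members was 24.4% in controls and 22.1% after melatonin, against 19.1% and 23.5% over all genes. In FPKM, which lacks TMM scaling, the 6 most abundant carriers all had the lower value after melatonin. It was 19.6% in controls and 10.3% after melatonin for SLC25A4, 13.6% and 6.34% for SLC25A3, 24.4% and 12.5% for SLC25A11, 29.7% and 26.0% for SLC25A34, 45.1% and 16.6% for SLC25A12, and 26.5% and 12.5% for SLC25A20. The next 3 by level, SLC25A39, SLC25A28 and SLC25A25, had the higher value after melatonin, at 16.4% and 18.3%, 22.4% and 31.5%, and 48.2% and 79.3%. On TMM-scaled counts the range was wider after melatonin for SLC25A4 (1279 to 1695 CPM in controls, 777 to 1307 after melatonin). This also held for SLC25A3 (558 to 688 and 335 to 526 CPM). It was narrower for SLC25A12 (62.9 to 194 and 74.3 to 142 CPM) and SLC25A20 (44.6 to 68.6 and 47.3 to 53.5 CPM). The lower spread of SLC25A4 and SLC25A3 thus depended on the scaling. None of these differences in spread was tested. The summed FPKM of all 40 members was 1033, 701, 928 and 823 in the controls and 638, 674, 731 and 701 after melatonin, which overlapped at control replicate 2. This measure was chosen after the values were seen and was not tested.

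Genes that work with the carriers were read from lists, with 0 past the adjusted threshold in edgeR. Of the carrier proteins of the same family under other names, UCP3, the muscle uncoupling protein, measured 31.8, 49.0, 40.1 and 71.8 FPKM in the controls and 47.0, 56.8, 71.6 and 79.8 FPKM after melatonin (0.35 ± 0.30). At a mean of 56.0 FPKM it stood above every SLC25A member except SLC25A4 and SLC25A3. UCP2 measured 1.85 ± 0.672 and 3.31 ± 1.86 FPKM (SD, n = 4 per group; 0.69 ± 0.36), highest in melatonin replicates 1 and 3, and MTCH1 had -0.09 ± 0.15. Other inner-membrane carriers were lower in 4 of 5 tested genes, 2 of them at an unadjusted p under 0.05 (median log2 fold change -0.18), where 50.2% of all genes were lower and 3.84% lower at that p. SFXN4, a sideroflexin, measured 6.85, 5.50, 5.21 and 5.74 FPKM in the controls and 4.54, 3.87, 4.33 and 4.32 FPKM after melatonin, with no overlap (-0.53 ± 0.14, edgeR adjusted p = 0.440). MPC2, a subunit of the pyruvate carrier, measured 12.3 ± 2.53 and 10.3 ± 1.46 FPKM (SD, n = 4 per group; -0.33 ± 0.14), and MCU, the pore of the calcium uniporter, had -0.18 ± 0.21.

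The outer-membrane channels VDAC1 (-0.26 ± 0.18) and VDAC2 (-0.31 ± 0.18) lay below 0 and VDAC3 (0.05 ± 0.16) above, with 0 of 3 at an unadjusted p under 0.05. Enzymes of the malate-aspartate shuttle were lower in 4 of 4 without any reaching that p (median -0.42, where 64.8% of genes at 10 FPKM or more were lower), including MDH1 (-0.49 ± 0.29), MDH2 (-0.35 ± 0.24) and GOT2 (-0.26 ± 0.20). In the carnitine shuttle 3 of 4 enzymes were lower (median -0.27, where 50.2% of all genes were lower). The other enzyme was higher at an unadjusted p under 0.05 (background 6.67%). CPT1A, the liver-type enzyme that loads fatty acids on carnitine, measured 3.95, 3.33, 4.13 and 5.01 FPKM in the controls and 9.48, 6.08, 8.65 and 3.69 FPKM after melatonin, higher in 3 of 4 melatonin libraries than in every control (0.64 ± 0.19, edgeR adjusted p = 0.440, and 0.36 without melatonin replicates 1 and 3). CPT1B, the muscle-type enzyme, measured 59.5 ± 17.4 and 48.7 ± 5.54 FPKM (SD, n = 4 per group; -0.35 ± 0.19), and CPT2, its partner on the inner membrane, had -0.49 ± 0.25. The mitochondrial creatine kinase CKMT2, which takes the ATP delivered by SLC25A4, measured 93.6 ± 32.2 and 73.6 ± 25.6 FPKM (SD, n = 4 per group; -0.38 ± 0.38). Iron-sulphur and haem genes, which use the iron and glycine that carriers bring in, were lower in 10 of 11 tested (median -0.20, background 50.2% of all genes lower), 1 of them at an unadjusted p under 0.05 (background 3.84%). That one, GLRX5, measured 3.75 ± 1.11 and 2.77 ± 0.292 FPKM (SD, n = 4 per group; -0.50 ± 0.20). NFS1 had -0.31 ± 0.15 and HSCB -0.33 ± 0.17. Of the citrate, folate and one-carbon partners 1 of 4, CS, was lower (median of the list 0.11), while ACLY (0.19 ± 0.22) and SHMT2 (0.11 ± 0.20) lay above 0, with 0 at that p.

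**Figure D5:**
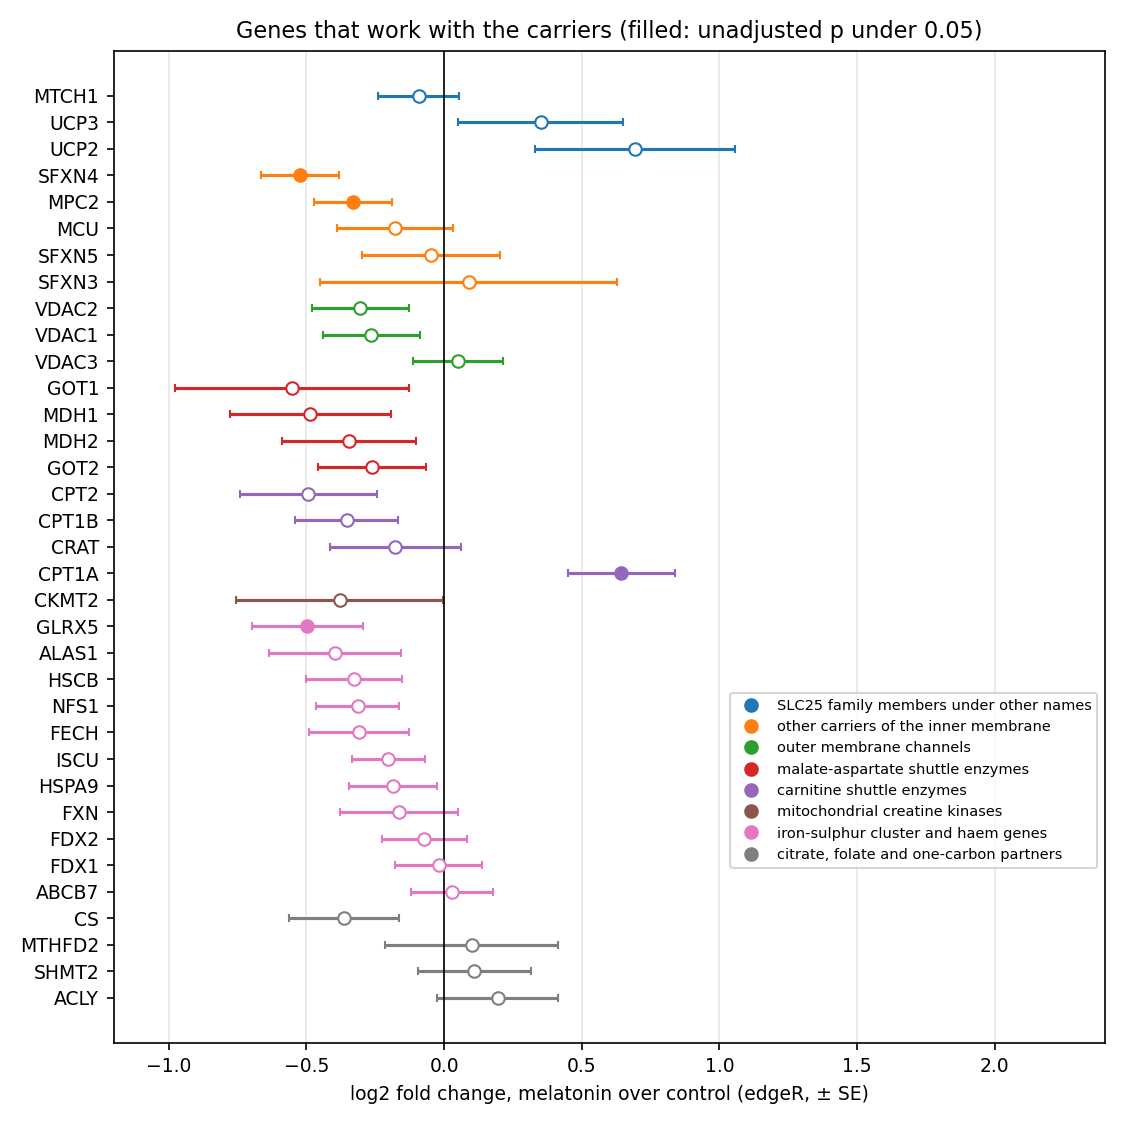
Log2 fold change of genes that work with the carriers (x axis, melatonin over control, edgeR, bars ± 1 SE; y axis, gene; colour, list; filled where the unadjusted p was under 0.05). The filled points are SFXN4 (-0.53), MPC2 (-0.33) and GLRX5 (-0.50) on the left and CPT1A (0.64) on the right.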

How the data were processed

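Members, lists and alternatives were chosen with earlier results of these data known. Per the labels' protocols, poly(A) RNA was made into strand-marked (dUTP) libraries and sequenced from both ends. The deposited table holds, per the file headers, raw counts and FPKM values computed by the authors for each gene and library. The submitters' processing notes list StringTie, FastQC, DESeq2 and Sscrofa11.1, with no role for any. Which aligner and annotation release were used is not given in the sources here. Of the columns of values, 0 were left unmapped. Missing symbols were added for 128 genes from a table of gene names, 110 from NCBI numbers and 2 from descriptions, and 8365 genes keep an ID.

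Genes with a mean of at least 1 FPKM (9821) entered edgeR 4.0.16 under R 4.3.3: TMM scaling, then the legacy quasi-likelihood F test of melatonin against control, Benjamini-Hochberg adjustment and a threshold of 0.05. The SE is the log2 fold change divided by the root of F. Alternatives were limma 3.58.1 on log2(FPKM + 1) or log2(FPKM + 0.1), DESeq2 1.42.0, other scalings, filters and variance models, a replicate block, and libraries left out. The edgeR, limma and DESeq2 steps were run on simulated counts with known changes. Pass limits were set for edgeR only, at the largest simulated fold change and for false calls. Smaller fold changes, such as those of the members, had no pass limit. No pair of libraries was a duplicate (smallest chi-square per degree of freedom 75.7). The naming rule took 20 members. These were the 12 with the smallest p, the highest of each substrate group, and those whose groups did not overlap in FPKM. Of the 20, SLC25A17 is given as a range and SLC25A40 as mean ± SD. The rule also took up to 3 genes per partner list. Counts cover all members, 1 of which is not reported here. SLC25A5, SLC25A13, SLC25A33 and the ratios were added after the values were seen. Plots used Matplotlib 3.10.9 in Python 3.11.15.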

Additional observations from a re-analysis of the deposited data

Results flagged for a closer look

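In groups of 4 libraries, an FPKM value was singled out where its gap to the nearest other exceeded the 95% limit of Dixon's ratio of gap to range. The rule was applied to FPKM only, without TMM scaling. This met 3 of 62 groups, and chance flags about 1 in 20, or 3.1 groups. SLC25A34 was low in melatonin replicate 4, at 23.7 FPKM against 42.4 to 45.0 in the other melatonin libraries. SLC25A22 was high in control replicate 3, at 2.46 FPKM against 1.01 to 1.18. SLC25A33 was high in melatonin replicate 3, at 3.44 FPKM against 0.223 to 0.710.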

How the results depend on the processing

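Across 18 alternatives, 0 members passed the adjusted threshold. Over all genes, DESeq2 called 65, and leaving out 1 library gave 0 to 15, with 15 without melatonin replicate 4. The 6 members at an unadjusted p under 0.05 became 1 without melatonin replicates 1 and 3 together, and 2 to 9 with 1 library left out. The share of all genes at that p was not counted for any alternative. Of the 14 members at a mean of at least 5 FPKM, 11 were lower. Of 351 fold changes of the 20 members taken by the naming rule, 328 kept their direction and side of the threshold and 23 reversed, in 8 members. Without melatonin replicates 1 and 3, SLC25A43 was at -0.0096, SLC25A30 at 0.18, SLC25A44 at 0.10, SLC25A22 at -0.21, SLC25A28 at -0.11 and SLC25A39 at 0.20. Under limma with a pseudocount of 1 and of 0.1, SLC25A34 was at 0.0073 and 0.008, SLC25A20 at 0.0523 and 0.0548 and SLC25A39 at 0.0336 and 0.0352. At the minimum of 5 FPKM SLC25A39 was at 0.012. With 1 library left out, SLC25A34 ran from -0.24 to 0.0401, SLC25A20 from -0.11 to 0.11, SLC25A28 from -0.0398 to 0.19 and SLC25A39 from -0.12 to 0.13. The cause was not tested. Whether replicate numbers pair the samples cannot be told from the libraries' deviations, as same-numbered and other pairs overlapped. Same-numbered libraries correlated at 0.182, 0.0828, 0.143 and -0.036, and other pairs at -0.244 to 0.311. Control replicates 1 and 3 correlated best with the same number. Control replicate 2 correlated best with melatonin replicate 4 (0.311) and control replicate 4 with melatonin replicate 2 (0.101). With the replicate block, 5 members had an unadjusted p under 0.05 and 0 genes were called. Depth was lowest for SLC25A33 (21 to 291 counts per library), and 4 libraries per group limit the precision of every value.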
